A study of Homo sapiens with 6 samples.

Results

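After AI-10-49, RUNX1 occupied 5854 places that were absent from the DMSO list and whose summit lay in a region with H3K27ac in both conditions. They were chosen from the peak lists. A RUNX1 peak of the AI-10-49 list counted if it overlapped no DMSO RUNX1 peak and if its summit fell inside an H3K27ac region of the DMSO list and inside one of the AI-10-49 list. These sites made up 5854 of the 10319 RUNX1 sites of the AI-10-49 list (56.7%), and 66.7% of the 8783 that had no DMSO counterpart. Sites without a DMSO counterpart are called new here, and the 1536 sites of the AI-10-49 list that overlapped a DMSO peak are called kept. Because presence in AI-10-49 and absence in DMSO were the rule, the gain of RUNX1 at these sites is given as a description and supports nothing.

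RUNX1 is a DNA-binding transcription factor needed to make blood cells, and it binds DNA more tightly together with its partner CBFβ. In leukemia with inv(16) the gene CBFB is joined to MYH11, and the fusion protein CBFβ-SMMHC binds RUNX1 and disturbs its work. Acetylation of lysine 27 on histone H3 (H3K27ac) marks active promoters and enhancers, where transcription factors usually sit in the nucleosome-poor stretch between acetylated nucleosomes.

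The cells were ME-1, a human leukemia cell line with inv(16), which all groups share. One group had AI-10-49 at 1 µM for 6 h, a small molecule that blocks the contact of CBFβ-SMMHC with RUNX1, and the control group had DMSO, the solvent. The ChIP antibodies recognised RUNX1 or H3K27ac. Of the 6 libraries of the series, 4 had a peak list (RUNX1 and H3K27ac, each in DMSO and in AI-10-49), while the 2 inputs came without one. There was 1 library for each combination of antibody and condition, all of 1 cell line, so no value below has a replicate spread, and no test between conditions was made. In brackets after a share stands its exact 95% interval (Clopper-Pearson), after a level its exact 95% Poisson interval, and after a single H3K27ac ratio the exact 95% interval given both counts. They cover sampling or counting error only.

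Levels are the number of DNA fragments over a peak's summit, recovered from the authors' fold enrichment and −log10 p and divided by the library's reads, in fragments per M (mega) reads. The recovered depth was 33.8 M reads for RUNX1 in DMSO and 31.5 M in AI-10-49, and 35.7 M and 37.0 M for H3K27ac. Fragments were longer in AI-10-49, by 1.13 times for RUNX1 and 1.09 times for H3K27ac, which by itself raises the number over a summit. All positions are in hg19.

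New RUNX1 sites differed from kept ones in where their summits fell. Of the new sites, 66.7% (65.7 to 67.6) had the summit in H3K27ac of both lists, against 55.2% (52.7 to 57.7) of kept sites. A summit in neither list was found in 19.0% of new and 28.0% of kept sites. Another 965 new summits lay in H3K27ac of the DMSO list only and 296 in that of the AI-10-49 list only. New sites made up 85.1% of the AI-10-49 list, the share against which each such count has to be read.

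The new sites in acetylated chromatin had lower RUNX1 levels in AI-10-49 than the kept ones. The split into new and kept rests on whether the DMSO list reached its threshold, which places sites of low RUNX1 among the new ones, so this difference is a description only. The median of the new sites was 31 summit fragments, or 0.984 per M reads (quartiles 0.761 and 1.4, lowest 0.381, highest 7.49), and their median width was 284 bp. Kept sites in the same kind of chromatin had a median of 2.22 per M reads (quartiles 1.36 and 3.41) and of 474 bp in width. New sites that touched no H3K27ac region had a median of 0.793 per M reads. A level of at least 2 per M reads was reached by 560 of the 5854 sites (9.57%, 8.82 to 10.3), by 466 of the 848 kept sites (55.0%, 51.5 to 58.3) and by 15 of 692 new sites without H3K27ac (2.17%, 1.22 to 3.55). The local background had medians of 0.116 per M reads at the new sites in acetylated chromatin and 0.145 at the kept ones.

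**Figure D1:**
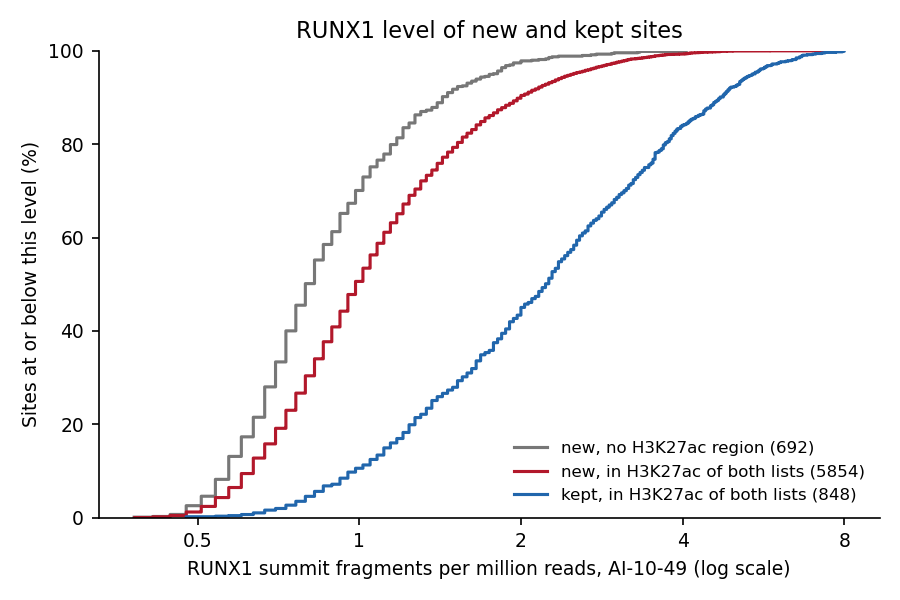
Cumulative share of RUNX1 sites (vertical axis, percent) against the RUNX1 level in AI-10-49 (horizontal log axis, fragments over the summit per M reads) for 3 sets of sites. The curve of the 5854 new sites in acetylated chromatin runs close to that of the new sites without H3K27ac and far left of the kept sites, with medians of 0.984, 0.793 and 2.22.

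How much RUNX1 a new site could have had in DMSO was bounded by what the DMSO list would have shown. For each site the number of fragments needed for a DMSO call was computed from the local background of the AI-10-49 list, the DMSO depth and the lowest −log10 p of the DMSO list (4.98). The number needed was 15 at the median site (lowest 11, highest 46), or 0.444 per M reads. The AI-10-49 level exceeded it by a median factor of 2.14 (quartiles 1.68 and 2.99), by over 2 times at 3311 sites (56.6%) and by over 4 times at 695 (11.9%). With the AI-10-49 level divided by the ratio of fragment lengths, 2628 sites exceeded the bound by over 2 times. With the background raised by its median DMSO over AI-10-49 ratio at kept sites (1.15) there were 2915 such sites. With the upper quartile of that ratio (1.53) there were 2058.

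RUNX1 was also higher in AI-10-49 where it had been listed in DMSO. At the 848 kept sites in acetylated chromatin the median ratio was 2.14 (quartiles 1.54 and 3.01), and 769 of them lay above what longer fragments would give. Of the new sites, 2870 (49.0%) exceeded their DMSO bound by less than that median ratio. Divided by 2.14, the AI-10-49 level of these 2870 sites falls below the DMSO bound, and that of the other new sites does not. The ratio comes from sites that were listed in DMSO and had more RUNX1 in AI-10-49 (median 2.22 against 0.984 per M reads). Whether it holds at new sites was not tested. With 1 library a condition, a change at single sites and a general difference between the 2 RUNX1 precipitations cannot be told apart.

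The new sites lay mostly in H3K27ac regions with high summit counts. They fell in 5163 H3K27ac regions of the DMSO list, whose summit counts had a median percentile of 91.2 among all 67087 DMSO regions. Of the 1000 regions with most fragments, 608 held at least 1 new site. By the rule only the 47607 DMSO regions that overlapped an AI-10-49 region could hold one, while the percentile counts all. How far this raises the percentile was not tested. Overlapping H3K27ac regions of the 2 lists were taken as pairs (58407 pairs, 5221 of them with a new site). Pairs were classed by the geometric mean of their DMSO and AI-10-49 levels. The choice of sites did not use this level, but it required the RUNX1 summit to lie inside both regions. A new site lay in 0.555% of pairs under 1 per M reads, in 4.58% from 1 to 2, in 18.1% from 2 to 4, in 43.5% (42.2 to 44.9) from 4 to 8 and in 64.9% (58.3 to 71.1) at 8 and over. Stronger regions were also longer, with a median shared stretch of 279 bp in the lowest class and 3252 bp in the highest. The median new RUNX1 summit lay 289 bp from the DMSO H3K27ac summit, so short stretches leave less room for a counted site. How far this shapes the shares was not tested.

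Per length the increase was smaller, though the density too counts only summits inside both regions. The stretches acetylated in both conditions covered 51.6 Mb, which is 1.67% of the chromosomes, and held 113 new sites per Mb. This density was 16.5 per Mb in the lowest class, then 63.9, 129, 195 and, at 8 and over, 204 per Mb. Kept sites followed the same order up to the class from 4 to 8, with 2.73, 10.3, 19.5 and 26.3 per Mb, and had 25.9 at 8 and over. New sites therefore numbered between 6.04 and 7.89 for each kept site in every class. The median RUNX1 level of the new sites rose from class to class, with 0.825, 0.857, 0.952, 1.05 and, in the highest, 1.17 per M reads.

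**Figure D2:**
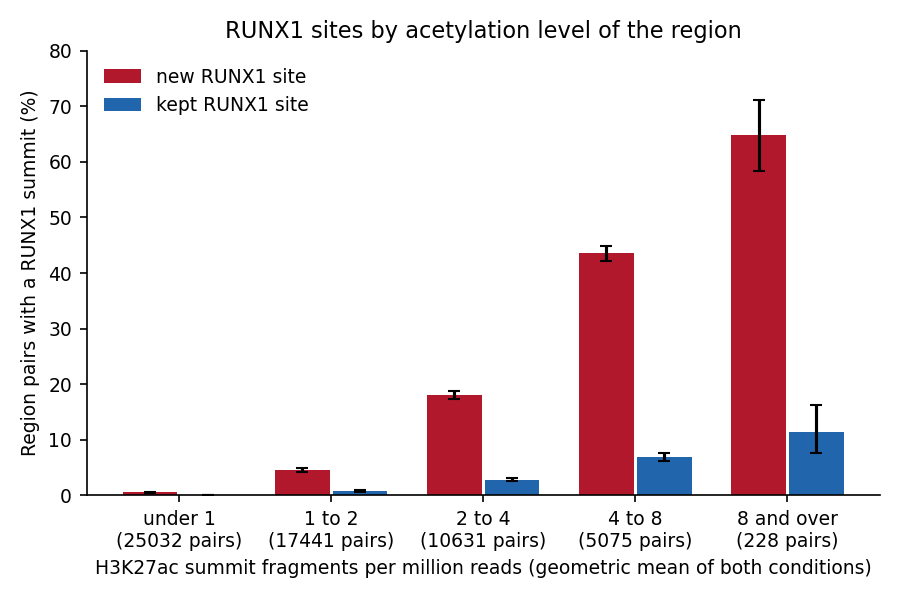
Share of H3K27ac region pairs that hold a new or a kept RUNX1 summit (vertical axis, percent) by the H3K27ac level of the pair (horizontal axis, geometric mean of summit fragments per M reads in both conditions). Bars give the share and lines its 95% Clopper-Pearson interval, and the share with a new site goes from 0.555% in the lowest class to 64.9% in the highest.

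Regions with H3K27ac in both lists did not have equal summit levels in both. With 1 H3K27ac library a condition, a change in acetylation and a general difference between the 2 precipitations cannot be told apart. In the 5221 pairs with a new RUNX1 site the median H3K27ac level at the summit was 4.65 (DMSO) and 3.03 (AI-10-49) per M reads. The ratio of AI-10-49 to DMSO had a median of 0.695 (quartiles 0.570 and 0.830). It was under 1 in 4716 pairs (90.3%). Of all 58407 pairs 69.96% had a ratio under 1, and their median was 0.764. Within level classes these shares lay closer, least so in the lowest class, with 66.19% (new site) and 51.33% (all pairs). From 1 to 2 per M reads they were 78.72% and 76.58%, and from 2 to 4 they were 90.75% and 90.61%. From 4 to 8 they were 95.61% and 94.96%, and at 8 and over 91.22% and 89.47%. "Stably acetylated" thus describes presence in both lists and not the level. Taking a factor of 1.5 as a call, 2288 pairs with a new site (43.8%) were lower in AI-10-49, where 38.8% of all 58407 pairs were, and 86 (1.65%) were higher, where 10.5% of all pairs were. The shares varied with the level of the pair, and within classes the order of the lower shares was not the same throughout. Under 1 per M reads, 24.5% of pairs with a new site and 18.5% of pairs without RUNX1 were lower. From 1 to 2 these were 48.2% and 52.9%, from 2 to 4 they were 54.5% and 61.6%, and from 4 to 8 they were 37.1% and 36.6%. The shares that were higher were 10.1% and 14.5%, 5.01% and 9.6%, 1.45% and 2.02%, and 0.181% and 0.522% in the same 4 classes.

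The median H3K27ac ratio of pairs with a new RUNX1 site was above that of pairs with no RUNX1 in either condition in 2 of the 5 level classes and below it in 3. Under 1 fragment per M reads, where the medians lay farthest apart, they were 0.885 with a new site (139 pairs) and 0.993 without RUNX1 (23553 pairs). From 1 to 2 they were 0.678 (799 pairs) and 0.643 (13122 pairs). From 2 to 4 fragments per M reads the medians were 0.643 with a new site (1925 pairs) and 0.604 without RUNX1 (6228 pairs). From 4 to 8 they were 0.714 (2210 pairs) and 0.718 (2109 pairs), and at 8 and over 0.883 (148 pairs) and 0.922 (57 pairs). Pairs with kept sites alone had 0.793, 0.588, 0.573, 0.687 and 0.796 from the lowest class to the highest. The quartiles of the 3 sets overlapped in each class. The order also changed with the setting. With both H3K27ac summits in the shared stretch, the medians from 1 to 2 were 0.689 with a new site and 0.702 without RUNX1. With the authors' fold enrichment those from 4 to 8 were 0.947 and 0.922. In the other classes both settings kept the order. Whether these medians differ was not tested, as each condition had 1 library.

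The size of the ratio depended on the unit. With the authors' fold enrichment in place of fragments the median ratio was 0.861 with a new site, and in the highest class it was 1.19 with a new site and likewise above 1 without RUNX1, which turns the direction there. Summit counts reached 383 in DMSO, where 2 times the fragment length is 384, so the highest counts stood near the most that 1 fragment per start and strand allows. With counts adjusted for such a ceiling the median ratio was 0.602.

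The H3K27ac ratio was also read along the RUNX1 level. Among new sites in pairs from 4 to 8 fragments per M reads the median H3K27ac ratio was 0.714 at sites under 0.75 RUNX1 fragments per M reads, 0.707 from 0.75 to 1, 0.718 from 1 to 1.5, 0.709 from 1.5 to 2 and 0.701 at 2 and over (310 sites). In pairs from 2 to 4 the 5 medians lay between 0.628 and 0.652. Neither series of medians went 1 way throughout.

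**Figure D3:**
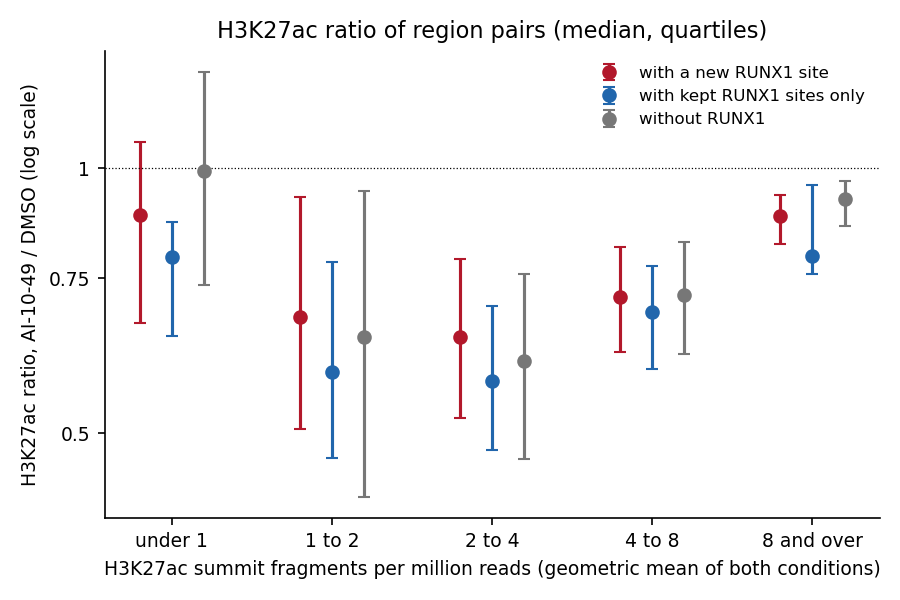
Ratio of H3K27ac summit fragments per M reads, AI-10-49 over DMSO (vertical log axis), in region pairs with a new RUNX1 site, with kept sites alone and without RUNX1, by H3K27ac level (horizontal axis). Points are medians and lines reach from the first to the third quartile, and the medians are 0.885, 0.793 and 0.993 under 1 per M reads and 0.714, 0.687 and 0.718 from 4 to 8.

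Within the acetylated region few new RUNX1 summits lay within 100 bp of the H3K27ac summit, and most lay 100 to 400 bp from it. The median distance between the RUNX1 summit and the DMSO H3K27ac summit was 289 bp (quartiles 202 and 463), and 62.8% (61.6 to 64.1) of the new sites were 100 to 400 bp away. The fullest 50 bp step was 200 to 250 bp, with 903 sites (15.4%). A distance under 100 bp was found at 351 sites (6.0%, 5.4 to 6.63), and 612 sites (10.5%) were at least 1000 bp away. Kept sites had a median of 307 bp, with 63.2% at 100 to 400 bp and 4.36% under 100 bp. Measured to the AI-10-49 H3K27ac summit, the medians were 308 bp for new and 303 bp for kept sites. There 5.69% of new and 6.60% of kept sites lay under 100 bp. How often a summit placed at random in the region would lie as near was not tested.

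The H3K27ac summit itself stayed near its place. In the 4903 pairs with a new site whose summits both lay in the shared stretch it was displaced by a median of 44 bp (quartiles 17 and 133). The median was 40 bp in pairs with kept sites alone and 53 bp in pairs without RUNX1. The H3K27ac summit was nearer to the new RUNX1 summit in AI-10-49 at 2687 sites, nearer in DMSO at 3106 and equally far at 61. The same count was not made at kept sites, so whether it is particular to new sites was not tested. Regions with a new site had a median width of 2494 bp in DMSO and 2292 bp in AI-10-49, a median ratio of 0.957. The ratio was 0.882 in pairs with kept sites alone (2209 bp in DMSO) and 0.866 in pairs without RUNX1 (873 bp in DMSO). These sets were not matched for width or H3K27ac level. The rule also required the AI-10-49 region to hold the new RUNX1 summit.

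**Figure D4:**
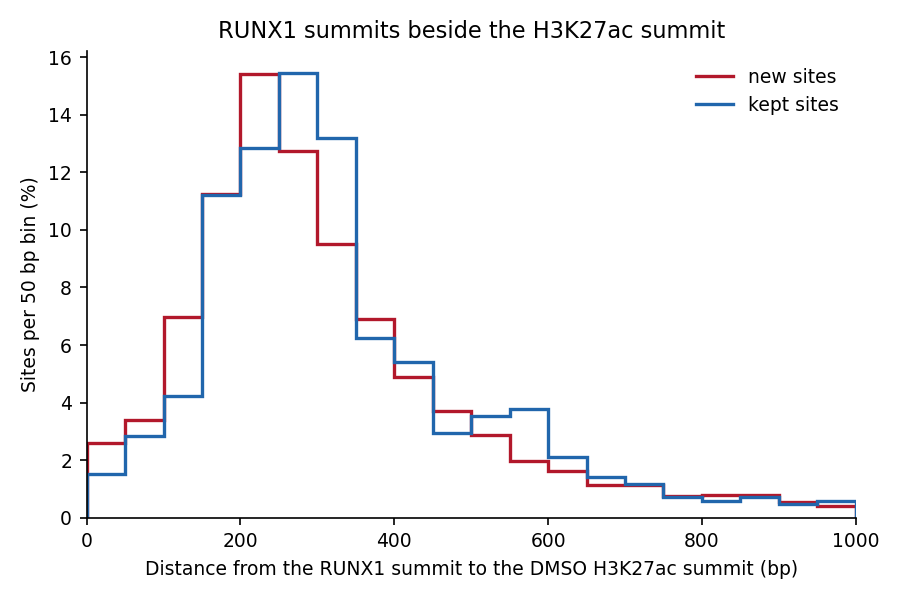
Share of sites per 50 bp step (vertical axis, percent) by the distance from the RUNX1 summit to the summit of the DMSO H3K27ac region (horizontal axis, bp, shown to 1000 bp), for new and kept sites in H3K27ac of both lists. New sites are most frequent at 200 to 250 bp and few lie under 100 bp.

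Of the 5163 DMSO H3K27ac regions that held a new site, 4970 (96.3%) were overlapped by no DMSO RUNX1 peak, and 252 new sites lay in the other regions. Of all 67087 DMSO H3K27ac regions 97.9% were overlapped by none, so the share is a description of these sites and not particular to them. The nearest DMSO RUNX1 peak was a median of 271 kb away (quartiles 68.6 and 835 kb). It was within 10 kb at 469 sites (8.01%) and beyond 1000 kb at 1255 (21.4%). Regions mostly took 1 new site (4582 regions), while 500 took 2, 61 took 3 and 20 took 4 to 6.

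Every chromosome with over 100 shared H3K27ac regions had new sites. Per 100 DMSO H3K27ac regions that overlapped an AI-10-49 region there were 12.3 new sites over all chromosomes, 15.5 on chromosome 19, 14.7 on 17 and 14.7 on 11 at the upper end, and 10.7 on X and 9.91 on 9 at the lower end. Chromosome Y, with 39 such regions, had 0. Among the 373 cytobands with at least 50 such regions the median was 12.1 (quartiles 9.26 and 15.2). Bands 5q31.2 (22 new sites in 88 regions) and 8q24.22 (24 in 96) each had 25 per 100, and 1q22 had 24.7. The 3 bands without a new site were 3q27.2, 3q27.3 and 7p15.3.

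The foremost new sites are given for the 10 chromosomes on which the best −log10 q was highest. No gene is assigned to a site, because no hg19 annotation was used. Where a gene of the same band is mentioned, this is background, and how far it lies from the site was not measured. The site of 8q22.3 (chr8:103665814-103667049), the band of the growth-restraining transcription factor gene KLF10, had 5.81 RUNX1 fragments per M reads (5.0 to 6.71), 11.5 times its DMSO bound of 0.503. H3K27ac there went from 9.39 per M reads (DMSO) to 7.22 (AI-10-49), a ratio of 0.769 (0.65 to 0.91). The DMSO count was 335, of the 384 that 1 fragment per start and strand would allow. Ratios of single sites were not adjusted for such a ceiling. The site of 2p23.2 (chr2:28632885-28633626), the band of the AP-1 family gene FOSL2, had 4.60 RUNX1 fragments per M reads (3.88 to 5.41) and an H3K27ac ratio of 0.701 (0.52 to 0.95), but the 2 H3K27ac summits compared were 989 bp apart. Its nearest DMSO RUNX1 peak was 0.436 kb away.

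In 11q13.4 (chr11:72447309-72448200) RUNX1 stood at 7.49 per M reads (6.56 to 8.51), the highest level of all 5854 sites, over a bound of 1.15. H3K27ac was 7.09 (DMSO) and 7.14 (AI-10-49) per M reads, a ratio of 1.01 (0.84 to 1.20). The site of 1q32.1 (chr1:203256258-203257021), the band of the antiproliferative gene BTG2, had 4.12 RUNX1 fragments per M reads (3.45 to 4.90) and an H3K27ac ratio of 1.05 (0.80 to 1.38). These were the 2 of the 10 sites whose H3K27ac ratio was not under 1.

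The other 6 had RUNX1 levels of 4.09 to 4.95 per M reads, all at least 8.64 times their DMSO bound. The H3K27ac ratio was 0.707 (0.56 to 0.89) in 22q13.1 (chr22:38004299-38004993), where the RUNX1 summit was only 28 bp from the DMSO H3K27ac summit. It was 0.619 (0.46 to 0.83) in 6q25.3 (chr6:159070546-159071195) and 0.717 (0.56 to 0.92) in 19p13.2 (chr19:11434746-11435378). In 16p11.2 (chr16:29674004-29675206), the band of the leukocyte surface gene SPN, it was 0.595 (0.49 to 0.72), and in 18q21.32 (chr18:56338116-56338911) it was 0.503 (0.33 to 0.76) in a region of 0.402 kb, narrower than the RUNX1 peak itself. The lowest of the 10 was 0.426 (0.33 to 0.55) in 20q13.2 (chr20:50157444-50158182), the band of the transcription factor gene NFATC2, where H3K27ac was 5.97 (DMSO) and 2.54 (AI-10-49) per M reads. The 10 sites had RUNX1 levels from 4.09 to 7.49 per M reads and H3K27ac ratios from 0.426 to 1.05.

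**Figure D5:**
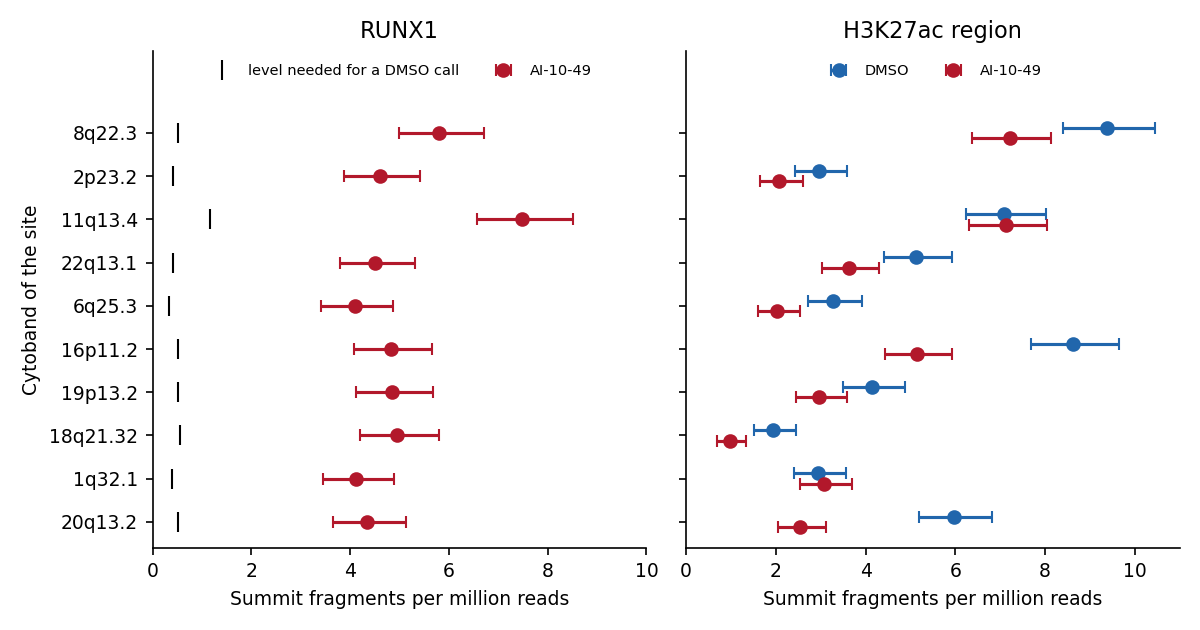
RUNX1 (left) and H3K27ac (right) summit fragments per M reads (horizontal axes) at 10 new sites, each named by its cytoband (vertical axis), with 95% Poisson intervals as lines. RUNX1 in AI-10-49 lies far right of the level needed for a DMSO call (black tick) at each site. The sites were picked for a high −log10 q in AI-10-49, so this is a description only. H3K27ac is lower in AI-10-49 at 8 of the 10 sites, beside 90.3% of all pairs with a new site.

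Among the 560 sites with at least 2 RUNX1 fragments per M reads, the 5 highest H3K27ac ratios lay between 1.68 and 2.09. The first was in 10q22.3 (chr10:81008191-81008518), with H3K27ac at 1.51 (DMSO) and 3.16 (AI-10-49) per M reads, a ratio of 2.09 (1.5 to 2.94). There the AI-10-49 region was wider (chr10:81003558-81010674 against chr10:81006121-81008849), and its summit was 1396 bp from the DMSO summit. In 2q37.3 (chr2:242754820-242755322) the ratio was 2.04 (1.4 to 3.03), with the 2 H3K27ac summits 89 bp apart. Ratios of 2.04 (1.52 to 2.77) in 22q12.3 (chr22:35772906-35773242), 1.76 (1.31 to 2.4) in 1q32.1 (chr1:206753116-206753702) and 1.68 (1.33 to 2.13) in 11p15.5 (chr11:2421374-2421996) came next, and there the summits were 576 to 828 bp apart. Only the 2q37.3 site of these 5 compares H3K27ac at nearly 1 position.

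The 5 lowest ratios lay between 0.246 and 0.297. In 15q22.31 (chr15:64184956-64185573) H3K27ac was 5.16 (DMSO) and 1.27 (AI-10-49) per M reads, a ratio of 0.246 (0.17 to 0.34), with summits 44 bp apart. In 11q13.3 (chr11:69469137-69469471), the band of the cell cycle gene CCND1, the values were 6.58 and 1.65, a ratio of 0.250 (0.19 to 0.33), with summits 5 bp apart. RUNX1 held 2.44 fragments per M reads at the first site and 2.13 at the second. Both sites are new by the rule and were picked for their low ratios. Their RUNX1 levels were 2.75 and 3.59 times the DMSO bound. The site of 6q25.3 (chr6:159107719-159108358) had 2.55 and 0.757 (ratio 0.297, 0.19 to 0.46), with summits 99 bp apart. At 6p22.3 (chr6:15248736-15249270), the band of JARID2, and at 5q35.3 (chr5:176856296-176856665) the ratios were 0.263 and 0.277, but the summits compared were 3400 and 2787 bp apart.

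The region with most new sites was chr17:56399917-56418655 of the DMSO list in 17q22, the band of the granule enzyme gene MPO, with 6. Their RUNX1 levels were low, from 0.857 to 1.4 per M reads, or 1.47 to 2.56 times the DMSO bound. The H3K27ac summit of the DMSO region held 9.95 per M reads. The AI-10-49 list divided the stretch, and the 6 sites lay in 2 of its regions there, with summits at 3.27 and 8.49 per M reads. A region in 14q24.3 (chr14:74205074-74228562) held 5 new sites of 0.761 to 2.38 per M reads, more than 1222 kb from any DMSO RUNX1 peak, and it too was divided in the AI-10-49 list. A region in 1p36.11 (chr1:26600563-26619039) held 5 of 0.984 to 2.92 per M reads, the nearest of them 1.14 kb from a DMSO RUNX1 peak, and was listed with nearly the same ends in AI-10-49. Of the 16 new sites in these 3 regions, 5 had at least 2 fragments per M reads, 3 of them in 14q24.3 and 2 in 1p36.11.

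New sites with at least 2 RUNX1 fragments per M reads also lay far from the 1701 peaks of the DMSO RUNX1 list. The farthest was in 4q23 (chr4:100484608-100485331), 10971 kb from a DMSO peak, with 2.57 fragments per M reads (2.04 to 3.19), 5.11 times its bound. A site in 8q21.13 (chr8:81938666-81939023) was 10711 kb away and had 2.03. Sites in 1p31.3 (chr1:66801581-66802061), 7p11.2 (chr7:56175402-56175722) and 1p21.2 (chr1:101725358-101725703) were 6657, 5801 and 4950 kb away, with 3.11, 2.32 and 2.70 per M reads. H3K27ac ratios at these 5 lay between 0.621 and 0.825 (with the summits 2652 bp apart in 1p21.2), beside a median of 0.695 over all pairs with a new site.

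Counted sites and sites left out met at the limits of the rule. In 140 new sites the RUNX1 summit was at most 10 bp inside an H3K27ac edge, and for 142 new sites not counted it was at most 10 bp outside. Right at an edge (0 bp) were 16 sites, and the 3 of them with the highest −log10 q were a site in 8q22.2 (chr8:101322132-101322621) with 3.84 RUNX1 fragments per M reads, one in 6q23.3 (chr6:136931385-136931781) with 2.22 and one in 9q33.2 (chr9:123659466-123659779) with 1.52. At 1 bp outside were 7 sites, and the 3 of them with the highest −log10 q lay in 18q21.1 (chr18:46459194-46459665, 1.84 per M reads), 8q24.22 (chr8:134087158-134087380, 2.03) and 11p11.2 (chr11:46777718-46777923, 0.635). The counted sites nearest to a DMSO RUNX1 peak were 39 bp (19p13.2, chr19:11708057-11708629), 48 bp (5q31.2, chr5:137090389-137090580) and 66 bp (Xp11.4, chrX:39589591-39589835) from it, with 1.24, 1.05 and 0.698 RUNX1 fragments per M reads. In all, 15 counted sites lay within 250 bp of a DMSO peak.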

How the data were processed

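RUNX1 and H3K27ac ChIP-seq peak lists of ME-1 cells were used as the authors deposited them, 1 list per library. Per the submitters' processing notes the build was hg19 and the tools were MACS2 2.1.0, Bowtie2 2.1.0, Picard 1.96, SAMtools 1.3 and CASAVA 1.4, with no role given. The deposited ratio per peak is a fold enrichment over local background, as the authors' peak caller gave it. So are −log10 p and −log10 q, also deposited per peak. A deposited score was left out.

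Fragments over each summit were solved from fold (pseudocount 1) and −log10 p at the scaling factor that made them whole. All peaks were solved to within 0.003 of −log10 p (100% in each list), against 1.67% to 3.33% at other factors (median). Read totals follow from the lowest background, the shortest peak as fragment length and an assumed genome size of 2700000000 bp. In data simulated for each list, 99.965% of fragment numbers were recovered for RUNX1 in AI-10-49 (2891 peaks) and 100% for each of the other 3 lists. Overlap calls on simulated intervals were checked against bedtools 2.31.1 (0 of 1280 differed). Peaks overlapped if they shared at least 1 bp.

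The sites, lists and rules were chosen with earlier results of these data known. Named sites were the best by −log10 q on 10 chromosomes, the 3 regions with most sites, sites with the 5 highest and 5 lowest H3K27ac ratios and the 5 farthest from DMSO peaks (each with at least 2 RUNX1 fragments per M reads), and 3 at each limit of the rule (ties by −log10 q). The DMSO bound was added after the lists were seen. Cytobands came from circlize 0.4.16, whose ends equal the hg19 lengths of GenomeInfoDb 1.38.1. An hg19 sequence and annotation were not used here. Software was Python 3.11.15, scipy 1.17.1, pandas 2.3.3, numpy 2.4.6 and, for plots, matplotlib 3.10.9.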

Additional observations from a re-analysis of the deposited data

How the results depend on the processing

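Of 46 alternative values 34 stayed close (within 1.5 times of a count, or inside the 95% interval of a share or median) and 12 moved. The cause was not tested unless given. With RUNX1 −log10 q of at least 10, 3427 of the 5854 sites were left, by construction. Overlap of the interval in place of the summit gave shares of 85.5% for new and 79.0% for kept sites (66.7% and 55.2%). H3K27ac −log10 q of at least 10 gave 64.1% and 52.0%, and a margin of 1 kb around DMSO peaks 57.7% for kept sites. The median H3K27ac ratio (0.695) was 0.861 with the deposited fold enrichment, 0.636 when divided by the ratio of fragment lengths and 0.602 when adjusted for 1 fragment per start and strand. The median distance to the H3K27ac summit (289 bp) was 308 bp with the AI-10-49 summit and 297 bp for sites with −log10 q of at least 10. Sites over 2 times the DMSO bound (3311) numbered 2058 with the background raised by 1.53.

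The adjusted ratio, the pairs with both H3K27ac summits in the shared stretch, the settings for the DMSO bound and those for RUNX1 level, sites per region and distance were chosen after seeing the data. The RUNX motif and distance to gene starts were not run, with their alternatives, as no hg19 sequence or annotation was used. No paired analysis was possible because no condition had a second library. A summit needed 11 or more fragments for a RUNX1 call in DMSO, so lower occupancy there was not detectable at this depth.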
